A study of Bos taurus with 4 samples.

Results

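Leukocyte lineage genes are genes whose transcripts mark white blood cells, from PTPRC, which all leukocytes carry, to genes of T, natural killer (NK), B, plasma, myeloid, mast, dendritic and granulocytic cells. They were chosen by symbol from a list of 48 genes, with a rule that named no measured value, though earlier results of these data were known when the list was drawn up. Of the 48 symbols, 47 had a row among the 29792 rows of each count table, and CSF3R, the granulocyte colony-stimulating factor receptor, was not analysed here.

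RNA was measured in 4 libraries, 1 each of bovine small intestine, muscle, and intestinal organoids at passage 5 (P5) and passage 10 (P10). Every sample was labelled Hanwoo, a Korean breed of cattle, and the cows were older than 24 months. Organoids are small three-dimensional epithelial cultures, here grown without a genetic change from crypts released from scraped jejunum, in Matrigel (a basement membrane gel) and IntestiCult (a commercial organoid medium). Neither labels nor methods state which muscle was taken, how many animals were used, or whether tissues and organoids shared an animal.

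All leukocytes carry CD45, the phosphatase encoded by PTPRC. T cells recognise antigen through a receptor that signals by the CD3 chains, B cells give rise to antibody-secreting plasma cells, and macrophages engulf debris and microbes. In the gut, T cells lie within and beneath the epithelium, plasma cells of the lamina propria secrete immunoglobulin A bound by the joining chain JCHAIN, and macrophages reside below the surface. Skeletal muscle holds mainly resident macrophages between its fibres, and a culture of crypt epithelium is not supplied with leukocytes from blood.

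The libraries held between 12917720 and 17776273 reads, so that 1 gene at the floor of 3 reads stood at 0.169 to 0.232 counts per 1000000 reads of the library total (CPM). RN18S1, a ribosomal RNA gene, took 23.6% of the muscle reads and between 0.264% and 4.81% of the others. The labelled tissues carried their defining genes. The 12 genes of skeletal muscle, led by ACTA1 and MB, were all above the floor in muscle (764735 reads in sum) against 85, 91 and 164 reads in intestine, P5 and P10 organoids. The 10 epithelial genes, led by KRT8 and KRT19, were all above the floor in intestine and both organoid libraries, and 5 of them, with 352 reads in sum, were above it in muscle. With 1 library per group, differences have no replicate check. Intervals are 95% intervals that treat each read as an independent count and do not cover the spread between samples. Since reads were not counted by molecular identifiers, the intervals may be too narrow even for counting error. Fewer leukocytes in a sample cannot be told apart from less RNA per leukocyte.

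To compare the lineages between intestine and muscle, the level of each gene was taken in CPM, and the difference as the log2 ratio of reads scaled by the TMM effective library size of edgeR. In intestine, 46 of the 47 genes were above 3 reads, against 29 in muscle, where 13 had no read. A count of 10 reads or more in either tissue was reached by 45 genes, and 41 of them were at least 2-fold higher in intestine (91.1%), against 34.1% of the 17559 rows tested in the same way. CD14 and CD163, both macrophage surface receptors, were at least 2-fold lower in intestine (4.44%, against 23.0% of all rows). For MS4A1 and CD79B, which had no read in muscle, the ratio at the limit of 3 reads was under 2-fold. The median log2 ratio of the members was 3.15, with 17 genes at the limit set by 3 muscle reads, and that of all rows was 0.29.

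PTPRC had 3394, 150, 40 and 43 reads in intestine, muscle, P5 and P10 organoids. These corresponded to 191 (184.6 to 197), 11.6 (9.83 to 13.6), 2.94 (2.10 to 4.01) and 2.43 (1.76 to 3.27) CPM. Intestine was highest, muscle lay between, and the organoid libraries were lowest with intervals that overlapped each other. PTPRC was 8.14-fold higher in intestine than in muscle on the TMM scale (log2 ratio 3.03, 2.79 to 3.27). On library totals, which underlie the CPM values, it was 16.4-fold higher (log2 ratio 4.04).

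**Figure D1:**
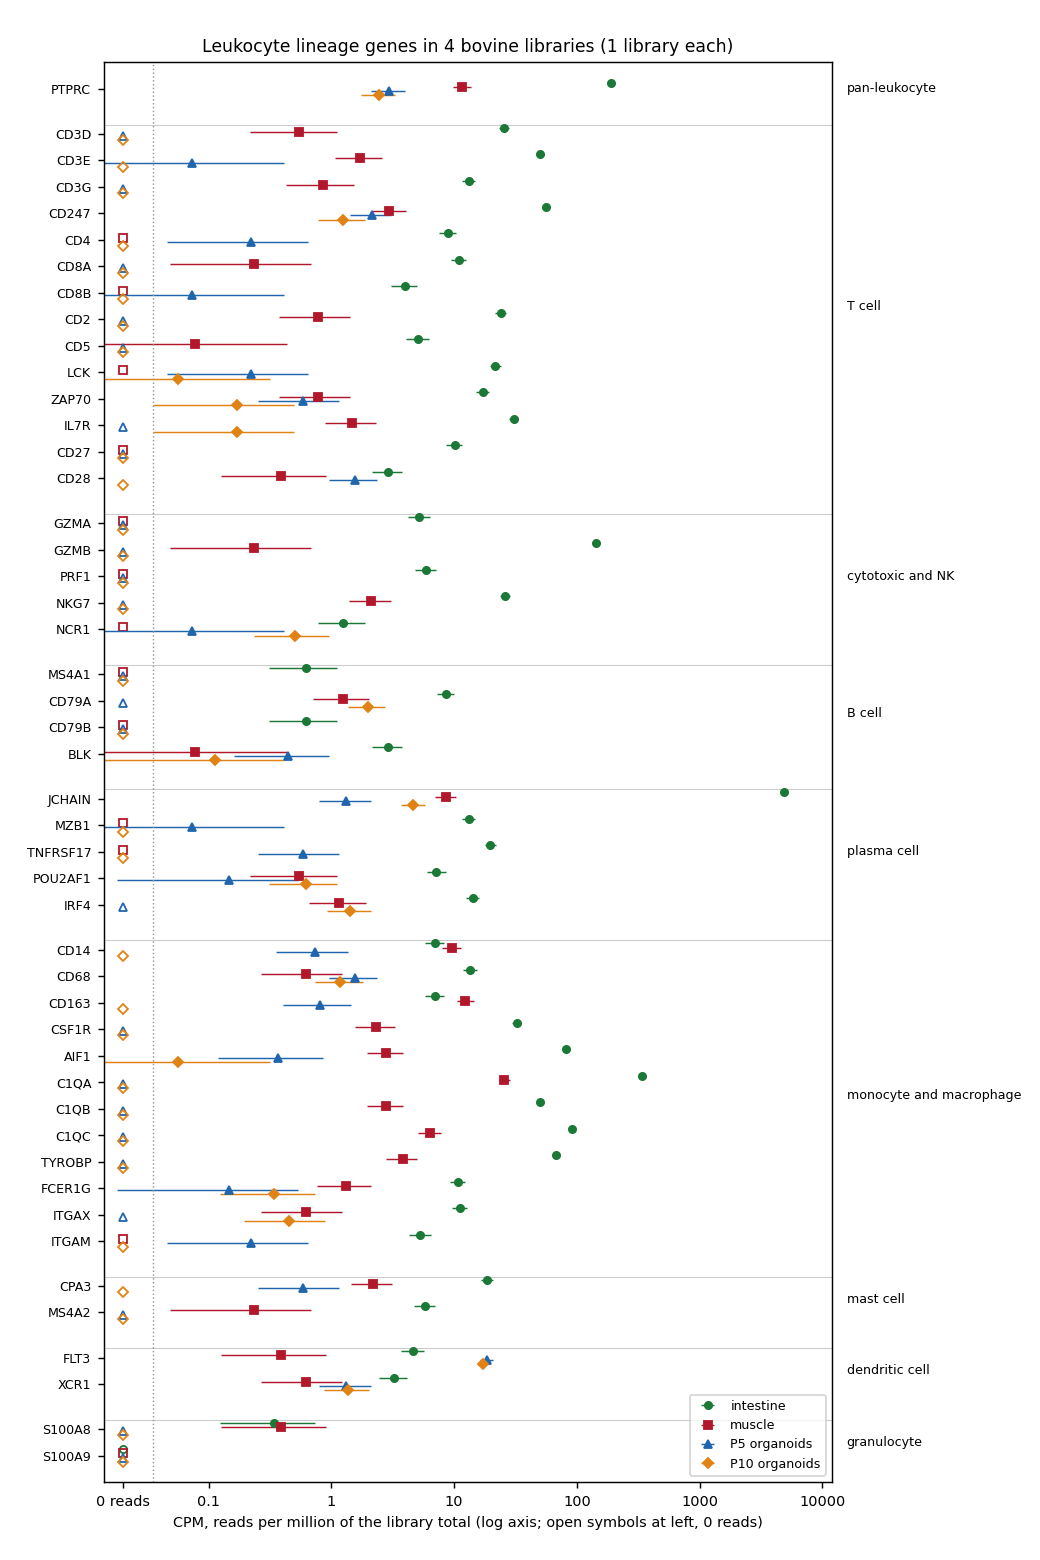
Level of each leukocyte lineage gene in 1 library each of intestine, muscle, P5 and P10 organoids, in CPM on a log axis, with exact 95% Poisson intervals and open symbols at the left for 0 reads. Intestine is the highest library for nearly all genes. The exceptions are CD14, CD163 and S100A8, which are highest in muscle, FLT3, which is highest in the organoids, and S100A9, which has no read. For CD14 and S100A8 the intervals of muscle and intestine overlap, so their order is uncertain. Intervals of intestine also overlap those of P5 organoids for CD28 and those of P10 organoids for NCR1.

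The genes of the T cell receptor complex were well counted in intestine and had far fewer reads elsewhere. CD3D, CD3E and CD3G, the chains that carry the receptor's signal, had 453, 891 and 233 reads in intestine and 7, 22 and 11 in muscle. CD247, the zeta chain of the same complex, had 988 reads in intestine and 38 in muscle. Their log2 ratios of intestine to muscle ran from 2.93 for CD3G (2.06 to 3.95) to 4.54 for CD3D (3.49 to 5.86), so that the 4 intervals overlapped.

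The co-receptors of T cells and the kinase LCK had fewer muscle reads still. CD4, the co-receptor of helper T cells, had 157 reads in intestine and none in muscle, a ratio of at least 18.8-fold. CD8A and CD8B, the co-receptor of cytotoxic T cells, had 194 and 70 reads in intestine against 3 and 0 in muscle. LCK, the kinase that starts receptor signalling, had 385 and 0 reads, at least 46.2-fold higher in intestine. ZAP70, the kinase that LCK activates, kept 10 muscle reads beside 303 in intestine, with a log2 ratio of 3.45 (2.55 to 4.52).

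Adhesion and co-stimulatory receptors followed the same order. CD2, an adhesion receptor, had 425 reads in intestine and 10 in muscle. CD5, a receptor that restrains T cell signalling, had 90 and 1, a 32.4-fold ratio whose counting interval on the log2 scale ran from 2.50 to 10.34. IL7R, the receptor for the survival factor interleukin 7, had 543 and 19 reads. CD27, a member of the tumour necrosis factor receptor family, had 179 and 0, a ratio of at least 21.5-fold. CD28, the co-stimulatory receptor, showed the smallest ratio of the T cell genes, with 51 and 5 reads and a log2 ratio of 1.88 (0.56 to 3.56). All 14 T cell genes were at least 2-fold higher in intestine, with a median log2 ratio of 3.66.

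Cytotoxic genes were led by GZMB, which encodes granzyme B, a protease that killer lymphocytes deliver into target cells. GZMB had 2558 reads in intestine (144 CPM) and 3 in muscle, a 307-fold ratio with a log2 interval of 6.71 to 10.54, and no read in either organoid library. GZMA (granzyme A) and PRF1 (perforin, which opens the target membrane) had 92 and 104 reads in intestine and none in muscle, ratios of at least 11.0-fold and 12.5-fold. NKG7, a granule membrane protein of killer cells, was less far apart, with 462 and 27 reads and a log2 ratio of 2.62 (2.06 to 3.24). NCR1, an activating receptor of NK cells, had 22 reads in intestine and none in muscle. GZMB made up 79.0% of the reads of the 5 cytotoxic and NK genes in intestine. Reads with more than 1 alignment were counted, and the RefSeq table lists a second granzyme A gene beside GZMA, so the split among granzymes is uncertain.

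B cell genes had few reads in both tissues. MS4A1 (CD20) and CD79B, a signalling chain of the B cell receptor, had 11 reads each in intestine and none in muscle, which sets only a lower limit of 1.32-fold. CD79A, the partner chain of CD79B, had 152 and 16 reads, a log2 ratio of 1.77 (1.03 to 2.62). BLK, a kinase of B cells, had 51 and 1. Plasma cell genes were counted more deeply. JCHAIN had 86692, 110, 18 and 82 reads in intestine, muscle, P5 and P10 organoids, or 4877, 8.52, 1.32 and 4.62 CPM. It was 284-fold higher in intestine than in muscle (log2 ratio 8.15, 7.88 to 8.43), and it made up 98.9% of the intestine reads of the 5 plasma cell genes.

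The remaining plasma cell genes lay in the same direction. MZB1, a chaperone of immunoglobulin assembly, had 233 and 0 reads, at least 28.0-fold higher in intestine. TNFRSF17, the survival receptor BCMA, had 350 and 0 reads, at least 42.0-fold higher. POU2AF1, a transcriptional co-activator of B cells, and IRF4, a transcription factor that drives plasma cell formation, had 127 and 251 reads in intestine and 7 and 15 in muscle. Their log2 ratios were 2.71 (1.62 to 4.05) and 2.59 (1.84 to 3.45). The sum of the plasma cell genes in muscle was 0.207% of the intestine level in CPM, and 3.15% without JCHAIN.

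Among the member lists, that of monocytes and macrophages had the most reads in muscle, with 880 of the 1384 reads of all members, and 11 of its 12 genes were above the floor there. The complement genes C1QA, C1QB and C1QC, which resident macrophages transcribe for the first component of the classical pathway, had 6027, 893 and 1615 reads in intestine and 332, 36 and 82 in muscle. Their log2 ratios of 2.71 (2.55 to 2.87), 3.16 (2.68 to 3.68) and 2.83 (2.51 to 3.16) overlapped. CSF1R, the growth factor receptor of macrophages, had 577 and 30 reads, and TYROBP, an adaptor of activating myeloid receptors, had 1212 and 49. Both lay in the same range, with log2 ratios of 2.79 (2.26 to 3.37) and 3.15 (2.74 to 3.60).

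AIF1, an actin-bundling protein of macrophages, had 1458 and 36 reads and the largest log2 ratio of this lineage with muscle above the floor, 3.87 (3.39 to 4.38). AIF1 overlaps NCR3, an activating receptor of NK cells, in the RefSeq table, and NCR3 had 1580 and 65 reads. CD68, a lysosomal membrane protein, had 239 and 8 reads, and ITGAX, the integrin CD11c, had 197 and 8. FCER1G, the common gamma chain of Fc receptors, had 190 and 17, a log2 ratio of 2.01 (1.29 to 2.82). ITGAM, the integrin CD11b, had 94 reads in intestine and none in muscle. Of the 12 genes, 10 were thus at least 2-fold higher in intestine.

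CD14 and CD163 went the other way. CD14, the co-receptor for bacterial lipopolysaccharide, had 123, 123, 10 and 0 reads in intestine, muscle, P5 and P10 organoids, or 6.92, 9.52, 0.735 and 0 CPM. CD163, the scavenger receptor for haemoglobin-haptoglobin complexes, had 124, 159, 11 and 0 reads, or 6.98, 12.3, 0.809 and 0 CPM. Muscle was the highest library for both, but for CD14 the CPM intervals of muscle (7.91 to 11.4) and intestine (5.75 to 8.26) overlapped. CD14 was 2.78-fold lower in intestine than in muscle (log2 ratio -1.47, -1.85 to -1.10) and CD163 was 3.56-fold lower (-1.83, -2.18 to -1.49). With library totals in place of TMM the log2 ratios were -0.46 and -0.82, in the same direction and within 2-fold.

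Mast cells, dendritic cells and granulocytes had small counts. CPA3 (mast cell carboxypeptidase) had 328 and 28 reads in intestine and muscle, a log2 ratio of 2.08 (1.52 to 2.69), and MS4A2, the beta chain of the immunoglobulin E receptor, had 103 and 3. FLT3, a growth factor receptor of dendritic cell progenitors, had 82 and 5 reads, and XCR1, a chemokine receptor of cross-presenting dendritic cells, had 57 and 8. Of the granulocyte genes, S100A8 had 6 and 5 reads, and S100A9, its partner in calprotectin, had none in any library, where 3 reads would be 0.169 CPM in intestine and 0.232 in muscle and the exact Poisson intervals end at 0.208 and 0.286.

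**Figure D2:**
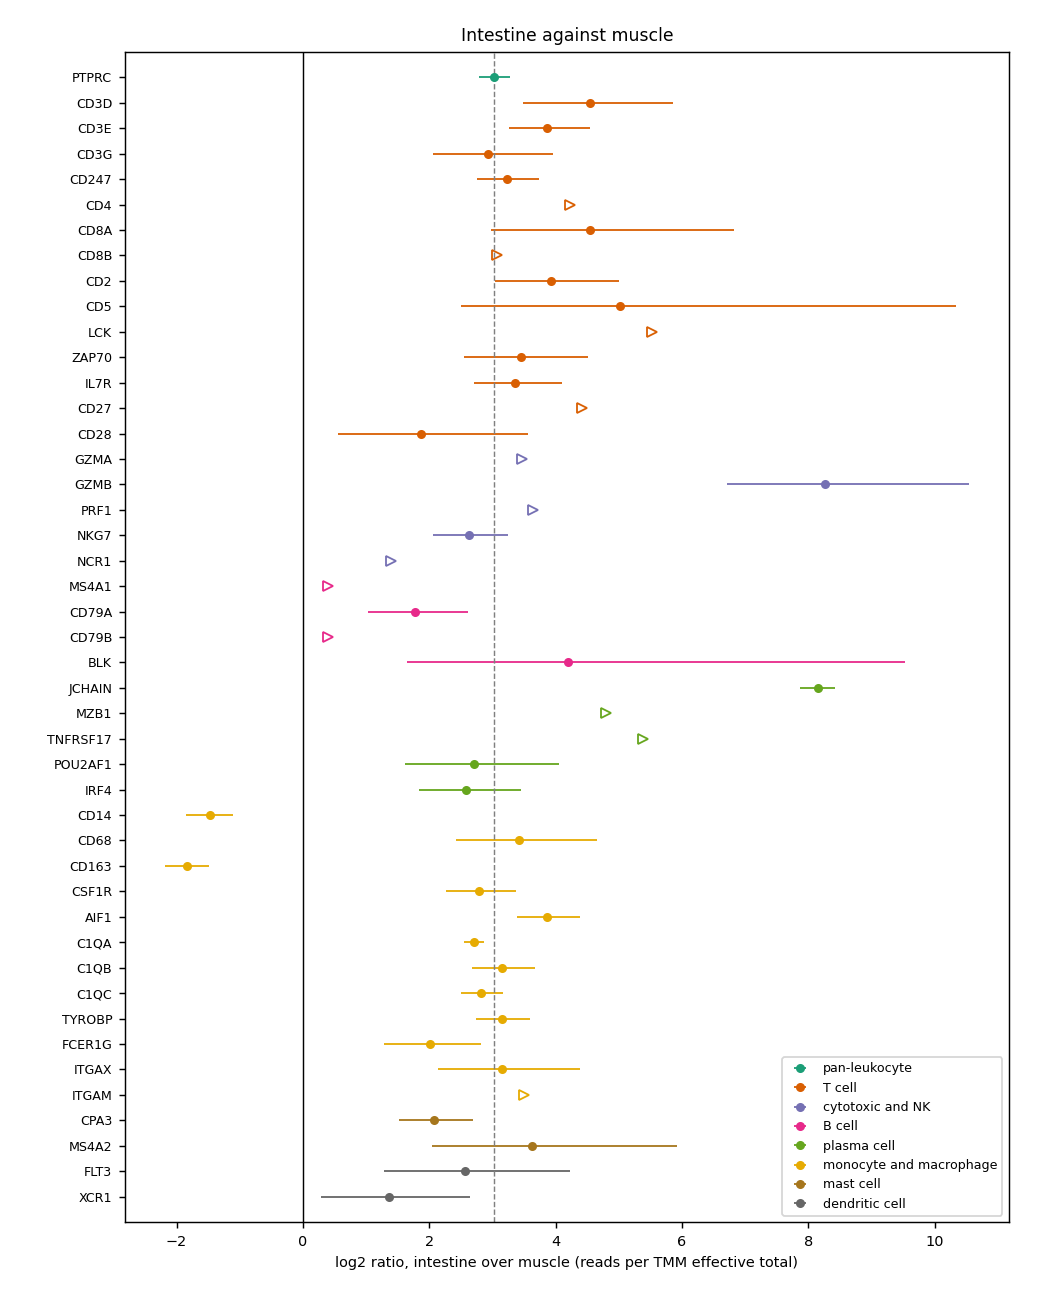
Log2 ratio of intestine to muscle for the 45 leukocyte genes that reached 10 reads in a tissue, with 95% counting intervals, and open triangles at the lower limit set by 3 reads where muscle had none. The dashed line marks PTPRC at 3.03, and CD14 and CD163 alone lie left of 0.

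The summed member lists differed in how their muscle level stood to that of intestine. In CPM, which rests on library totals and not on TMM, muscle had 6.08% of the intestine level of PTPRC, 3.49% of the summed T cell genes, 1.28% of the cytotoxic and NK genes (5.46% without GZMB), 9.50% of the monocyte and macrophage genes, 9.90% of the mast cell genes and 10.4% of the B cell genes. The B cell value rested on CD79A, which held 94.1% of the B cell reads in muscle. The mast cell value rested on CPA3, which held 90.3% of those reads, and was 4.01% without it, from 3 muscle reads. Summed lists of other leukocyte genes did not keep this order. Muscle had 24.2% of the intestine level for T cells, 11.1% for monocytes and macrophages and 36.4% for B cells. For plasma cells it had 10.6%, for mast cells 14.3% and for cytotoxic and NK cells 7.12%. The order thus holds for the member lists and was not shown for the lineages. CD14 and CD163 had 123 and 159 of the 880 macrophage list reads in muscle, and 123 and 124 of 12749 in intestine. Relative to PTPRC, which takes the library scale out of the comparison, 7 of 44 genes had more reads per PTPRC read in muscle with an interval that left out 0, and 4 had fewer, while 16 intervals held 0 and 17 genes were at the floor in muscle. Of all 17558 rows set against PTPRC in this way, 76.6% had more and 3.09% fewer, and of 83 other leukocyte genes 40 had more and 12 fewer. The 7 were CD79A, CD14, CD163, C1QA, FCER1G, CPA3 and XCR1, and the 4 were CD3D, CD3E, JCHAIN and AIF1.

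Of the 7 members with more, CD163 and CD14 had the largest differences, while JCHAIN (34.8-fold fewer) and GZMB, with 3 muscle reads (37.7-fold fewer, log2 -5.24, -6.89 to -3.59), lay farther from equality in the other direction. Per 100 PTPRC reads there were 3.62 reads of CD14 in intestine and 82.0 in muscle, and 3.65 and 106.0 of CD163. These were 22.6-fold and 29.0-fold differences (log2 4.50, 4.07 to 4.93, and 4.86, 4.45 to 5.27), where the median over all rows was 6.66-fold more in muscle. Other genes of macrophages, listed beside the members, included 8 of 11 with an interval above 0, near the 76.6% of all rows. MRC1, the mannose receptor (9.31-fold), and LYVE1, a hyaluronan receptor (15.0-fold), lay above the median of all rows. Below it were FOLR2, a folate receptor (3.93-fold) and VSIG4, a complement receptor (4.32-fold). FCGR3A, an Fc receptor, lay in the opposite direction, with 5.68-fold fewer reads per PTPRC read in muscle. Fibroblast and endothelial genes, the other cells that lie between muscle fibres, had median log2 ratios of intestine to muscle of -0.47 and 0.07. Their part in the CD14 and CD163 values was not tested.

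**Figure D3:**
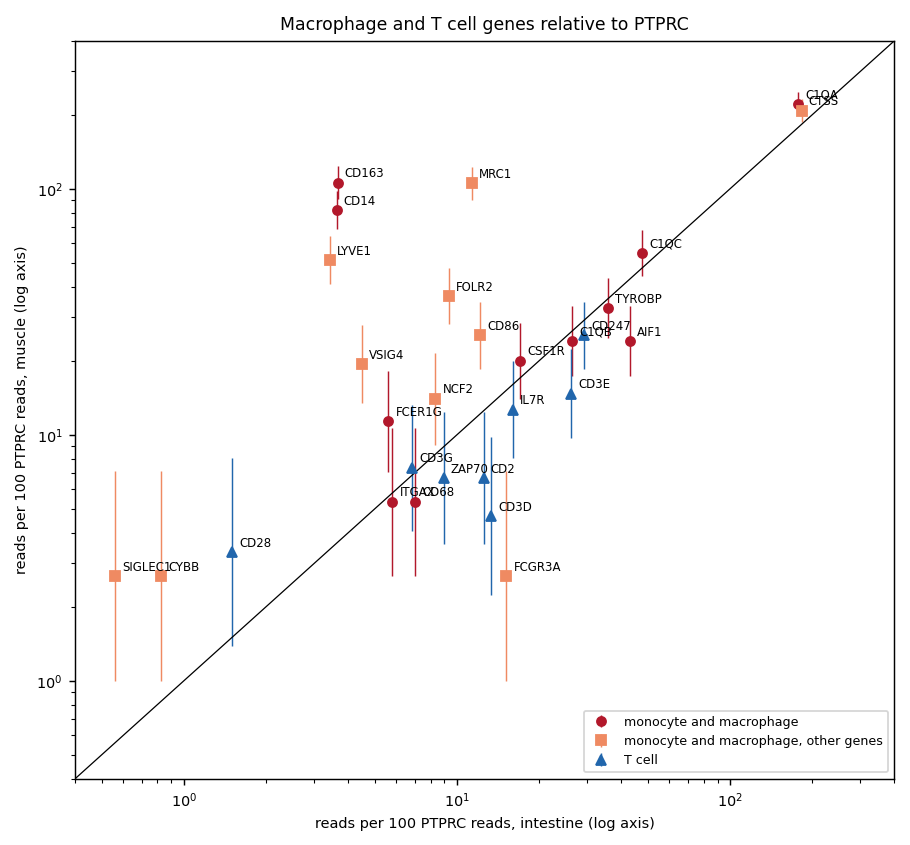
Reads per 100 PTPRC reads in intestine (horizontal) and muscle (vertical), both on log axes, for T cell genes, monocyte and macrophage genes and other macrophage genes above 3 muscle reads, with approximate 95% intervals from the muscle reads of each gene alone. On the diagonal the tissues are equal, and CD14, CD163, MRC1 and LYVE1 lie far above it while C1QA, C1QC and TYROBP lie near it.

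Organoids at P5 and P10 were examined for any leukocyte transcripts left after culture. In each comparison with intestine, 45 genes reached 10 reads, and all 45 did so in the intestine library. Of these, 44 were at least 2-fold lower in P5 organoids than in intestine, against 27.0% of the 17783 rows tested. In P10 organoids 44 of 45 were lower, against 31.6% of 17803 rows, and both comparisons used the same intestine library. FLT3 alone was at least 2-fold higher in each, where 18.4% and 22.0% of all rows were. The median log2 ratios of the members were -5.50 at P5 and -5.95 at P10, with 31 and 33 genes at the limit set by 3 organoid reads, and those of all rows were -0.08 and -0.12. For the genes at this limit, 10 intestine reads by themselves gave a 2-fold fall. All rows tested also included rows that reached 10 reads in organoids alone. The counts of 44 were thus largely set by the minimum, and shares among rows with 10 intestine reads are given next.

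Most members were at or under the floor of 3 reads. Intestine had 10 reads or more of 45 genes, of which 31 were at the floor in P5 organoids (68.9%, against 11.6% of 16759 such rows), 33 in P10 organoids (73.3%, against 14.0%) and 25 in both (55.6%, against 9.15%). No read was found in either organoid library for 20 of all 47 genes. These included CD3D, CD3G, CD8A, CD2, CD5 and CD27 of T cells, GZMA, GZMB, PRF1 and NKG7 of killer cells, MS4A1 and CD79B of B cells, and CSF1R, C1QA, C1QB, C1QC and TYROBP of macrophages. C1QA was at least 1732-fold lower in P5 and 2374-fold lower in P10 organoids than in intestine. GZMB was at least 735-fold and 1007-fold lower, and TYROBP at least 348-fold and 477-fold.

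The few reads left in organoids were spread unevenly over the lineages. At P5 the 14 T cell genes had 66 reads in sum, of which 43.9% were CD247, and at P10 they had 29, of which 75.9% were CD247. The 12 monocyte and macrophage genes had 52 and 36 reads, the 5 cytotoxic and NK genes 1 and 9, and the mast cell genes 8 and 0. In CPM, the sums in P5 and P10 organoids were 1.74% and 0.586% of the intestine level for T cells, 0.533% and 0.283% for monocytes and macrophages, and 0.0404% and 0.279% for cytotoxic and NK genes. Without GZMB the cytotoxic and NK genes stood at 0.192% and 1.33%, and all 9 of their P10 reads were on NCR1. The plasma cell genes stood at 0.0432% and 0.135%, and without JCHAIN their 961 reads in intestine compared with 11 at P5 and 36 at P10. The B cell genes were higher, at 3.49% and 16.5%, from 6 reads at P5 and 37 at P10, of which CD79A held 94.6%. All 47 members came to 0.545% and 0.533%. The sums were 2.26% and 1.99% without JCHAIN, which dominates the intestine reads, and 0.926% and 0.734% without JCHAIN, FLT3 and XCR1, a set left out after the values were seen.

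Beside these, fibroblast genes, led by DCN and COL3A1, stood at 0.339% of the intestine level in P5 and 0.0260% in P10 organoids. Smooth muscle genes, led by DES and CNN1, stood at 1.04% and 2.61%, and endothelial genes, led by VWF and PECAM1, at 6.68% and 6.25%. The epithelial genes stood at 397% and 326% of it. Apart from the dendritic cell list, the summed member lists lay far below the epithelial genes. Lists of other leukocyte genes stood higher for some lineages. They were at 53.9% and 87.8% for plasma cells, 54.3% and 44.8% for T cells and 42.5% and 46.0% for B cells. Lower were macrophages (22.3% and 4.42%), mast cells (13.2% and 4.78%), cytotoxic and NK cells (2.98% and 4.63%) and dendritic cells (2.58% and 1.19%).

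**Figure D4:**
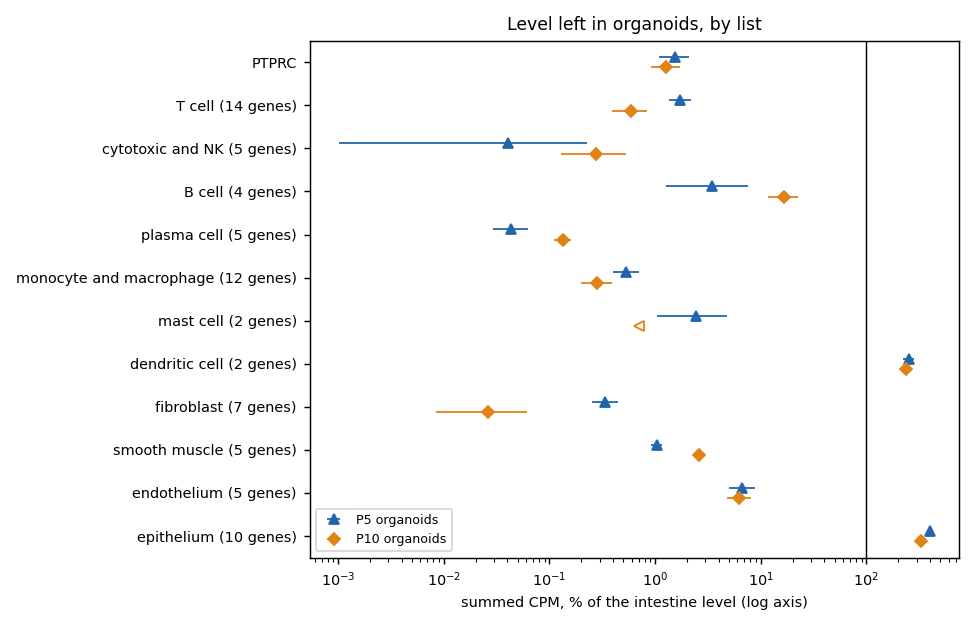
Summed CPM of each gene list in P5 and P10 organoids as a percent of the intestine level (log axis), with exact 95% Poisson intervals of the organoid sums and an open triangle at the 3-read limit where a sum was 0. PTPRC lies at 1.54% and 1.27%, and the dendritic cell list, which is mostly FLT3, lies above 100% with the epithelium.

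In the RefSeq table PTPRC overlaps LOC112441940 and LOC101905566, and whether its reads came from its own transcript was not tested. PTPRC itself was not at the floor in organoids, with 40 and 43 reads. It was 73.1-fold lower in P5 (log2 ratio -6.19, -6.68 to -5.74) and 93.3-fold lower in P10 organoids (-6.54, -7.01 to -6.11) than in intestine, and the organoid libraries differed by -0.35 on the log2 scale (-1.01 to 0.31). The reads of PTPRC were 1.18% and 1.27% of its intestine reads. At the same shares, 9 other members would have had at least 10 reads in each organoid library, and 6 of these at P5 and 7 at P10 were at the floor. C1QA would have had 71.0 and 76.4 reads and had none. GZMB would have had 30.1 and 32.4, and TYROBP 14.3 and 15.4, and both had none. The reads of PTPRC in organoids were thus not accompanied by those of C1QA, GZMB and TYROBP in the ratio seen in intestine. The 9 were the members with the most intestine reads apart from PTPRC, and members with fewer lay on both sides of that ratio. CD28 at P5 had 21 reads where 0.601 would match PTPRC, and CD79A at P10 had 35 where 1.93 would. CD3D and CD2 had no read, where 5.34 and 5.01 would match at P5. Other macrophage and killer cell genes also lay on both sides. CD68 was above the ratio, with 21 reads in each library where 2.82 and 3.03 would match PTPRC. CD14 and CD163 at P5 and NCR1 and ITGAX at P10 were also above it, while CSF1R and NKG7 had no read.

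CD247 behaved unlike the other chains of its complex. It had 29 reads in P5 and 22 in P10 organoids, where CD3E had 1 and 0 and CD3D and CD3G had none. Its log2 ratios to intestine were -4.88 (-5.46 to -4.34) and -5.73 (-6.41 to -5.12). CD68 was also retained, with 21 reads in each organoid library and log2 ratios of -3.29 (-4.01 to -2.65) and -3.75 (-4.47 to -3.10). XCR1 had 18 and 24 reads and log2 ratios of -1.45 (-2.30 to -0.66) and -1.49 (-2.24 to -0.78). With PTPRC, JCHAIN and FLT3, these made up the 6 genes that were above the floor in both organoid libraries, and each of the 6 had at least 10 reads in both. XCR1 overlaps FYCO1 in the gene models of ARS-UCD2.0, which had 392 and 519 reads in the organoids, and the strand used in counting is not given in the sources used here.

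FLT3 was the member with more reads in organoids than in tissue. It had 82, 5, 250 and 304 reads in intestine, muscle, P5 and P10 organoids, or 4.61 (3.67 to 5.73), 0.387 (0.126 to 0.903), 18.4 (16.2 to 20.8) and 17.1 (15.3 to 19.2) CPM. Both organoid libraries were above intestine and muscle with intervals that did not overlap, and they overlapped each other. FLT3 was 3.54-fold higher at P5 (log2 ratio 1.82, 1.46 to 2.20) and 3.14-fold higher at P10 (1.65, 1.29 to 2.02) than in intestine. Other dendritic cell genes did not share this pattern. BATF3, a transcription factor of dendritic cells, had 261 reads in intestine and none in the organoids, ZBTB46, a second such factor, had 180, 14 and 0, and CLEC9A, a receptor for dead cells, had 60, 1 and 9. FLT3 lies between PAN3 and URAD in the RefSeq table. URAD, an enzyme of urate breakdown, had 99, 5, 426 and 200 reads in intestine, muscle, P5 and P10 organoids, and PAN3 had 1339, 87, 1198 and 1935. Whether reads on FLT3 came from its own transcript was not tested.

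Between the passages, 12 members could be compared, with 10 reads or more in an organoid library. CD79A, JCHAIN, POU2AF1 and IRF4 were at least 2-fold higher at P10 (4 of 12, against 16.6% of the 16131 rows tested), and CD28, CD14 and CD163 at least 2-fold lower (3 of 12, against 19.0%). PTPRC, CD247, CD68, FLT3 and XCR1 were within 2-fold. Apart from JCHAIN, each gene called had 3 reads or fewer in the other passage, where reaching 10 reads by itself gave a 2-fold ratio. The shares of members called were thus largely set by the minimum of 10 reads, and no conclusion is drawn from them. The median log2 ratio of P10 to P5 was -0.26, with 6 of the 12 at the limit set by 3 reads, and that of all rows was 0.05.

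The 4 genes higher at P10 belonged to the B and plasma cell lists. CD79A had 0 reads at P5 and 35 at P10, at least 8.51-fold higher, and IRF4 had 0 and 25, at least 6.08-fold higher. JCHAIN had 18 and 82 (3.32-fold, log2 ratio 1.73, 0.98 to 2.56), and POU2AF1 had 2 and 11 (4.01-fold, log2 interval -0.19 to 5.22). MS4A1, CD79B and, outside the members, VPREB3 had no read in either organoid library, and MZB1 and TNFRSF17 had 1 and 8 reads at P5 and none at P10. In the intestine library, VPREB3 had 284 reads. TNFRSF17 overlaps GSPT1 in the RefSeq table, and GSPT1 had 1241 and 1670 reads in the organoids.

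The 3 genes lower at P10 had no read there. CD28 had 21 reads at P5, and was 2.09-fold lower than intestine in that library (log2 ratio -1.07, -1.87 to -0.31). CD14 and CD163 had 10 and 11 reads at P5. Against intestine they were 10.6-fold and 9.72-fold lower at P5, and at least 48.4-fold and 48.8-fold lower at P10. MRC1, from the list of other macrophage genes, had 37 reads at P5 and 2 at P10, while LYVE1 and FOLR2 had none in either.

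In all, 14 members were above the floor in 1 organoid library alone. At P5 these were ZAP70 (8 reads), CD28, BLK (6), TNFRSF17 (8), CD14, CD163, AIF1 (5) and CPA3 (8). At P10 they were NCR1 (9), CD79A, POU2AF1, IRF4, FCER1G (6) and ITGAX (8). The remaining T cell genes CD4, CD8B, LCK and IL7R had at most 3 reads in either organoid library, as did ITGAM.

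Genes of other tissues also had small counts. The reads of skeletal muscle genes in P5 and P10 organoids were mostly on NEB, which encodes nebulin (48 and 124), and MB, which encodes myoglobin (27 and 34). They were not in the ratio seen in muscle, since ACTA1, with 264562 reads there, had 1 and 0. The JCHAIN reads in P5 and P10 organoids were 0.0208% and 0.0946% of those in intestine, and in muscle 0.127%. COL3A1 and DCN, with 8351 and 3351 intestine reads, had none in either organoid library. The epithelial genes had in muscle 0.624% of their intestine reads, more than the 0.127% of JCHAIN and the 0.117% of GZMB, and less than the 4.42% of PTPRC. The part of reads carried between samples or libraries was not tested.

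A list of 94 other leukocyte genes with a row was set beside the members by lineage. At least 2-fold higher in intestine than in muscle, as were 34.1% of all rows, were 17 of 18 pan-leukocyte genes tested, 10 of 16 T cell genes, 6 of 9 cytotoxic and NK genes, 4 of 9 B cell genes, 7 of 8 plasma cell genes, 7 of 11 macrophage genes, 4 of 6 mast cell genes and 4 of 5 dendritic cell genes. The B cell genes were nearest to the share of all rows. TRAT1 and CR2 were at least 2-fold lower, as were 23.0% of all rows. LCP1, an actin-bundling protein, had 3104 reads in intestine and 372 in muscle, and LAPTM5, a lysosomal protein of leukocytes, had 2696 and 48. CCL5, a chemokine of killer lymphocytes, had 1009 and 14, and KLRD1, an NK receptor, had 242 and 12. KIT, the stem cell factor receptor of mast cells, had 525 and 40. Among granulocyte genes CCR3, the eotaxin receptor, had 27 and 4, and CXCR2, a neutrophil chemokine receptor, had 9 and 0.

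In organoids the other leukocyte genes split. LAPTM5 had 1 and 0 reads in P5 and P10 organoids, KIT 5 and 0, KLRD1 1 and 1, and CORO1A, CD52, HCLS1 and WAS, all pan-leukocyte, had none or 1. At least 50 reads in an organoid library were reached by 24 of the 94, against 42.7% of all 29792 rows. All 24 were among the 83 with 10 reads or more in intestine, where 74.3% of 16759 such rows reached 50. These genes carried the sum of the list, which stood at 24.1% and 26.2% of the intestine level. XBP1, a transcription factor of secretory cells, had 3619, 1530 and 3811 reads in intestine, P5 and P10 organoids. TXNDC5 and FKBP11, which serve protein folding, had 2221, 779 and 1714 and 1448, 502 and 990. BCL11B, a transcription factor of T cells, had 962, 727 and 778, and TRAT1, an adaptor of the T cell receptor, had 502, 703 and 776.

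The other genes past 50 reads were named from several lineages. BANK1, an adaptor of B cells, had 905, 375 and 592 reads in intestine, P5 and P10 organoids, CD37, a tetraspanin, 423, 162 and 310, and CTSS, a lysosomal protease, 6203, 1358 and 353. CYTIP had 322 and 352 in the organoids, RAC2 211 and 520, LCP1 158 and 274, CD38 250 and 541, SDC1 388 and 559 and PIM2 115 and 265. Fewer reads were found for PTPN6 (123 and 58), FERMT3 (111 and 37), SPI1 (81 and 7), TCF7 (30 and 89), CST7 (23 and 65), SPIB (128 and 43), CD72 (58 and 111), PRDM1 (153 and 28), VSIG4 (66 and 24) and SLC18A2 (93 and 43). These genes were thus detected in libraries in which C1QA, GZMB, CD3D and TYROBP had no read.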

How the data were processed

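QuantSeq 3′ mRNA libraries of intestine, muscle, P5 and P10 organoids were analysed, 1 per group. The counts the authors deposited are whole numbers of reads per gene, not normalised, from Bowtie2 alignments tallied in Bedtools with multiple alignments included. The genome build and the strand used in counting are not given in the sources used here, so no coordinates are printed.

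Counts of all 29792 rows were scaled with edgeR 4.0.16 (TMM) in R 4.3.3. The study names quantile normalisation, which gave 1 read a log2 value of 0.32 in intestine and 2.09 in muscle, so it was kept as an alternative. Levels have exact Poisson intervals, and ratios have exact conditional binomial (Clopper-Pearson) intervals of 95%, computed with Python 3.11.15, numpy 2.4.6, pandas 2.3.3 and scipy 1.17.1 and drawn with matplotlib 3.10.9. Intervals relative to PTPRC are normal approximations on the log scale. A gene was counted as higher or lower with at least 10 reads in either library and a 2-fold ratio, and no test was made. A ratio against 0 reads is a limit computed at 3 reads, and with 1 to 3 reads the plain ratio is given. In the counts of genes and in medians, libraries with 3 reads or fewer were set to 3. The ratio script was tested on simulated data.

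Named genes were all members, the top 2 genes by reads of each other list, and other leukocyte genes with at least 50 reads in an organoid library. A few more (such as URAD, PAN3, FYCO1 and VPREB3) were named after their values were seen. Members and lists were chosen with earlier results of these data known, and the comparison relative to PTPRC after the values were seen. Of the 47 members, 46 were found in the RefSeq table of ARS-UCD2.0, used for neighbouring genes only. The alternatives were library totals, upper-quartile and quantile normalisation, libraries thinned to 12917720 reads, minima of 1 or 50 reads, a floor of 1 read and rows summed by symbol. A planned motif search in the member proteins was not run, since no protein sequences were used here.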

Additional observations from a re-analysis of the deposited data

How the results depend on the processing

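Of 99 summary values under 8 alternatives, 92 stayed, counts within 1.5-fold and medians between the medians of the genes' lower and upper interval ends. For P10 organoids against intestine these ends had no lower limit, so a lower median could not be labelled as moved. Single genes with no read likewise had intervals open on 1 side. With library totals, 0 members were at least 2-fold lower in intestine than in muscle. The median log2 ratio of P10 organoids to intestine was -4.22 with quantile normalisation. Between passages, the number of members higher at P10 was 1 with a minimum of 50 reads. The number lower was 1 with quantile normalisation, 8 with a minimum of 1 read and 0 with 50, where the median ratio was 0.78. Over all alternatives, 39 to 43 members were higher in intestine than in muscle, 40 to 44 lower at P5 and 40 to 45 lower at P10, and 23 to 27 were at the floor in both organoid libraries. Of 790 ratios of single genes, 658 stayed, 129 moved and 3 turned, all with quantile normalisation in P10 organoids against intestine, where NCR1 (0.12), MS4A1 (0.40) and CD79B (0.40) came out higher. The cause was not tested. Library totals moved the median of all rows by 1.01 on the log2 scale between intestine and muscle, and by 0.17 and 0.24 for P5 and P10 organoids against intestine. No paired analysis was possible because each group had 1 library. Depth limited what genes with few intestine reads could show: for S100A8, with 6 and no organoid read, the lower limit of the fall was 1.72-fold at P5 and 2.36-fold at P10.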
